A study of Mus musculus with 12 samples.

Results

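Nuclear receptors were followed in mouse liver cells caught at stages of the change from hepatocyte to biliary epithelial cell. The set comprised 36 genes, each found by its symbol among the 53599 genes of the count table, and 34 of them had enough reads to be tested among 16210 genes. Esrrg and Nr2f1 fell below that filter. The mice carried a wild-type genotype and had been given AAV8-TBG-Cre. This viral vector drives Cre recombinase from the hepatocyte promoter TBG and was given to trace hepatocytes. The reporter allele behind EGFP is not given in the sources used here. From 1 week later they ate a 0.1% DDC diet, which injures bile ducts, for 8 weeks. Cells were then sorted into 4 groups with 3 libraries each. The early group was EGFP+ Cd24- Epcam-, the intermediate group EGFP+ Cd24+ Epcam-, and the full group EGFP+ Cd24+ Epcam+. The resident biliary epithelial cells (BEC) were EGFP- and Epcam+. All groups shared the virus and the diet, so none was an uninjured control, and labelling rests on the hepatocyte specificity of the TBG promoter. Ages and sexes were not used here.

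Nuclear receptors are transcription factors whose ligands are small fat-soluble molecules such as bile acids, oxysterols, fatty acids, retinoids, thyroid hormone, vitamin D and steroids. Many bind DNA as a heterodimer with a retinoid X receptor (RXR), at repeats of a short core motif, and exchange corepressors for coactivators when ligand arrives. In hepatocytes several of them set bile acid synthesis, lipid oxidation, lipogenesis and drug metabolism, whereas vitamin D receptor is known in biliary epithelium rather than in hepatocytes.

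The DNA before the start sites is shown for 5 receptors that include the largest rise and some of the largest falls, with the Rxra window that holds the core motif of the family. RefSeq promoter windows (GRCm38.p6, 250 bases before to 50 after each start) matched 34 of the 36 genes, with 52 windows in all, and Thra and Nr3c1 had none. Each line gives the 250 bases before a start, 5′ to 3′ along the gene's own strand, and capitals mark 5 motifs searched on both strands. These were AGGTCA, the core motif of the family, its variant AGTTCA, the spaced repeat of retinoic acid response elements (GGTTCA, then any 5 bases, then AGTTCA, which it shares with the variant), the E-box CACGTG and the GC box GGGCGG.
Vdr, vitamin D receptor (chr15:97908297-97908546, minus strand): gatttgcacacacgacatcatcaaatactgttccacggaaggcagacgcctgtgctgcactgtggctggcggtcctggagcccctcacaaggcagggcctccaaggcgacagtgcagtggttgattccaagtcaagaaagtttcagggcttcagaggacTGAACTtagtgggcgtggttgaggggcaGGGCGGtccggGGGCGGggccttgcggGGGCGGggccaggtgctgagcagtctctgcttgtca
Rarb, retinoic acid receptor beta (chr14:16575477-16575726, minus strand): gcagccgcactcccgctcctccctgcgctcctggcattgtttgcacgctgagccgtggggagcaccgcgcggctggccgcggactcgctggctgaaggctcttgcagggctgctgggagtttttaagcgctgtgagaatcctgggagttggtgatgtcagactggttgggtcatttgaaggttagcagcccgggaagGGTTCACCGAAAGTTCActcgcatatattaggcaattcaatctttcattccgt
Thrb, thyroid hormone receptor beta, upstream start (chr14:17660710-17660959, plus strand): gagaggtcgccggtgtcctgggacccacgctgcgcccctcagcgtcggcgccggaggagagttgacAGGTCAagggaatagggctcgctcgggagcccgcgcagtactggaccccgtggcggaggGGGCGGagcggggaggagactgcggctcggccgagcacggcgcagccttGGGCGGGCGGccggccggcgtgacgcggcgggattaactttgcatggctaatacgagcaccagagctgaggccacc
Thrb, downstream start (chr14:17981394-17981643, plus strand): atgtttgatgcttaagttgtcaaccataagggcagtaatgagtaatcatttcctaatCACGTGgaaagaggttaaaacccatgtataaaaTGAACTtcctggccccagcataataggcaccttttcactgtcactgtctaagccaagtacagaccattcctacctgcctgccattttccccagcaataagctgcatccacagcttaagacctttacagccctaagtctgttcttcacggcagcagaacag
Nr1h4, farnesoid X receptor (chr10:89506659-89506908, minus strand): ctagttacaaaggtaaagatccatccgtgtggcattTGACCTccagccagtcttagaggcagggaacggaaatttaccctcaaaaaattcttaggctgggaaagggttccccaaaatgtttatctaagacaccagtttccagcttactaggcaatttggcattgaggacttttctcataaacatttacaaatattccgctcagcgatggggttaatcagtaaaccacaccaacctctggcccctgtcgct
Rxra, retinoid X receptor alpha (chr2:27709042-27709291, plus strand): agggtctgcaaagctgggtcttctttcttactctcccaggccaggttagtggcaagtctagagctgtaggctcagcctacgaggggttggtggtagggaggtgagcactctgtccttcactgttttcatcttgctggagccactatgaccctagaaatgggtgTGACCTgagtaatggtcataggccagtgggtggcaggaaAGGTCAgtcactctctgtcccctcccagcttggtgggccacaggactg
The letters of the spaced repeat are those of the textbook retinoic acid element of Rarb, so its presence in that window followed from the choice of letters. Those letters stood in 2 of all 32851 RefSeq windows (0.00609%). Other spellings of the repeat were not searched, so the share does not count retinoic acid elements in general. The window of Vdr carried 3 GC boxes, and its upstream run TGAACT is AGTTCA on the other strand. Nr1h4 and Rxra each carried the core motif, on one or both strands. Across the set, 11 of 52 windows (21.2%) held AGGTCA against 16.3% of all windows, and 25 windows (48.1%) held GGGCGG against 35.7%. AGTTCA stood in 15.4% against 14.0% and CACGTG in 9.62% against 7.15%. Receptor windows had a median of 15 CpG dinucleotides and 60.2% G and C, and all windows had 7 and 52.7%. Of the genes with a window, AGGTCA was present in 2 of 9 that were higher in BEC than in early cells and in 5 of 15 that were lower, and in 3 of 8 that were not called. These matches describe letters in the windows and were not tested as binding sites.

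Total counts lay between 15112893 and 19731887 per library, and the receptors together held 0.170% to 0.222% of them. The summed level of 9 hepatocyte markers was 106037 to 113010 CPM (read counts scaled to library size) in early libraries and 2234 to 2954 in BEC. That of the biliary markers rose from between 967 and 1929 in early cells to between 14074 and 17439 in BEC. CPM values below use library sizes scaled by trimmed mean of M values (TMM), which assumes that most genes keep their level. Bulk RNA cannot tell fewer cells of a type from less RNA per cell. In the account that follows, fold changes carry the standard error (SE) of edgeR's quasi-likelihood fit of all 12 libraries, and adjusted p is its Benjamini-Hochberg value over 16210 genes. A gene is said to rise, fall or be called where that value is under 0.05. The libraries of a group are listed in the order of their labelled numbers 1, 2 and 3.

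Between early and intermediate cells, 13 receptors fell, among them Nr1i3, Rxrg, Ppara and Rxra, while Rarb, Rarg, Nr2c2 and Nr4a2 rose. Counting every call at that step, 20 of 34 tested receptors were called (58.8%), 7 higher and 13 lower. Of all genes 54.4% were called, 28.7% higher and 25.7% lower. The 7 receptors include Vdr, which had 0 counts in early libraries and whose call at this step is not read as support. Between intermediate and full cells 19 were called (55.9%), 6 higher and 13 lower, where the background was 40.7%, with 20.8% higher and 19.8% lower. Between full cells and BEC 11 were called (32.4%), 4 higher and 7 lower, beside 21.3% of all genes, 10.7% higher and 10.6% lower. The median log2 fold change of the tested receptors was -0.19, -0.19 and -0.07 at the 3 steps, and that of all genes 0.06, 0.01 and 0.00. Across the whole range, BEC differed from early cells in 26 receptors (76.5%), 10 higher and 16 lower, where 73.1% of all genes were called, 40% higher and 33% lower. Full cells differed from early cells in 25 receptors, 9 higher and 16 lower, beside 71.2% of all genes, 39.1% higher and 32.1% lower. BEC differed from intermediate cells in 22, 7 higher and 15 lower, beside 52.4%, 26.3% higher and 26.2% lower. A test of all 4 groups at once called 26 receptors and 75.6% of all genes.

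**Figure D1:**
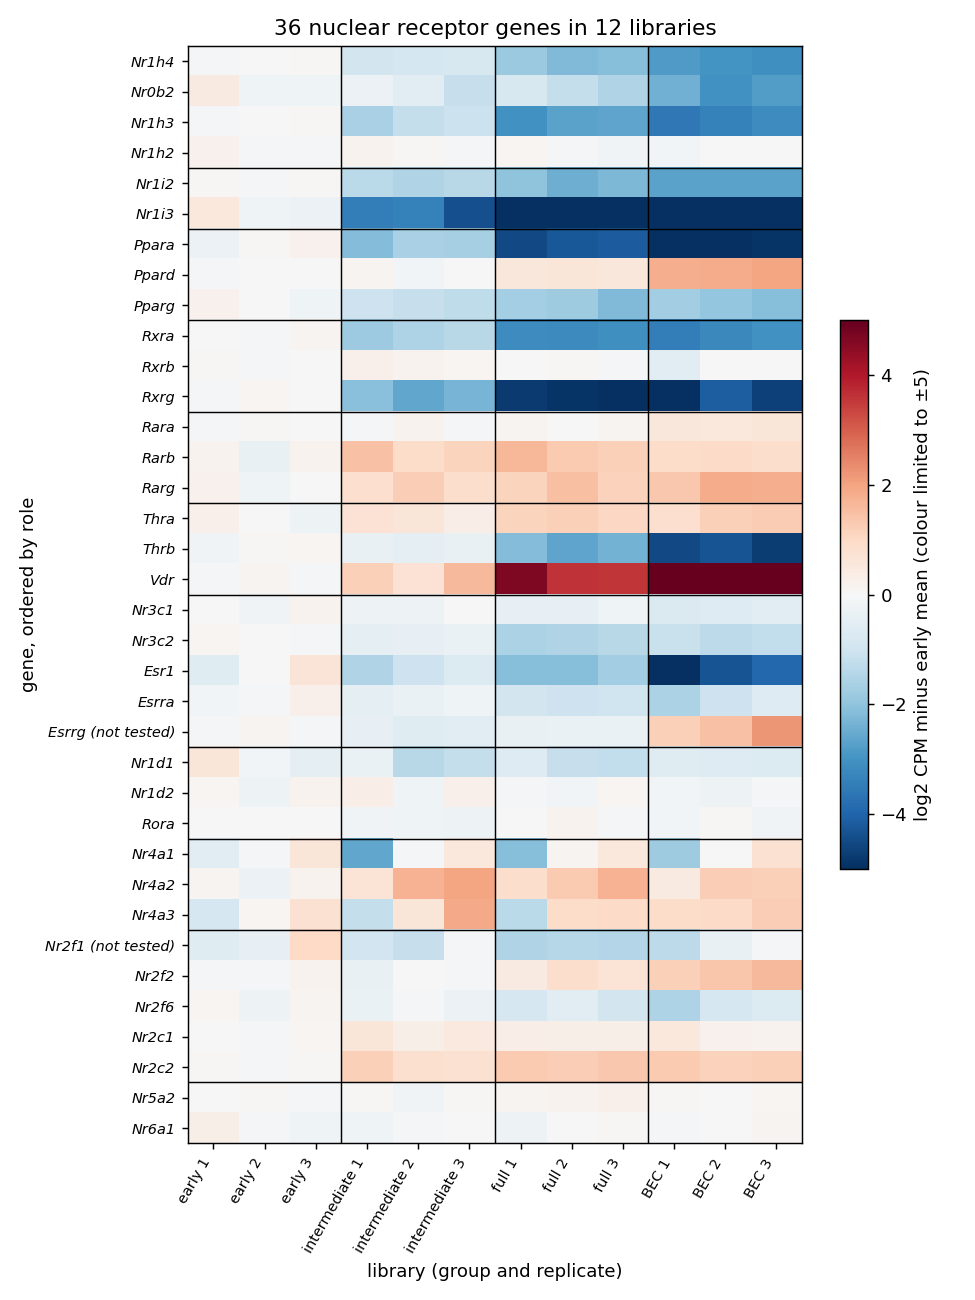
Heatmap of the 36 receptors (rows) in the 12 libraries (columns, by group), as log2 CPM minus the mean of the 3 early libraries, with the colour scale limited at 5 in either direction. Ppara, Rxrg, Nr1i3, Thrb and Esr1 move toward low values across the groups, and Vdr moves the opposite way from 0 counts in every early library.

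A total of 11 receptors fell at both of the first steps, and 15.3% of all genes did. They were Nr1h4, Nr1h3, Nr1i2, Nr1i3, Ppara, Pparg, Rxra, Rxrg, Thrb, Nr3c2 and Esr1. Thra, Nr2c2 and Vdr were called higher at both (Vdr first from 0 counts, as given with that gene), as were 12.8% of all genes. A further 9 tested receptors passed the threshold at neither step. The split at the first step depended on the scaling. With library sizes taken as total counts alone, the median gene moved to 0.72 and the split of called receptors became 18 higher and 7 lower, where 69.4% of all genes were then called, 59.4% higher and 10% lower. The 7 were Nr1h3, Nr1i2, Nr1i3, Ppara, Pparg, Rxra and Rxrg. With that scaling Nr0b2, Thrb and Nr3c2 changed sign (0.02, 0.24 and 0.26), and of these only Nr3c2 was then called higher (adjusted p = 0.0369). Nr1h4, Esr1 and Nr1d1 kept their sign (-0.20, -0.47 and -0.30) without a call. At the second step total counts gave 9 higher and 10 lower, beside 44.5% of all genes, 32.3% higher and 12.2% lower. For BEC against early cells they gave 17 higher and 12 lower, beside 82%, 65.8% higher and 16.2% lower.

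Of the bile acid and oxysterol receptors, Nr1h4 and Nr1h3 fell at every step. Nr1h4 encodes the farnesoid X receptor (FXR), the bile acid sensor of hepatocytes. Its level was 215, 226 and 235 CPM in early libraries, 120, 121 and 130 in intermediate, 62.5, 48.4 and 51.3 in full, and 31.6, 28.0 and 27.0 in BEC. All libraries of each group were below those of the group before, and the falls were 0.86 ± 0.10, 1.20 ± 0.10 and 0.90 ± 0.10 on the log2 scale (adjusted p = 7.81e-06, 1.03e-06 and 2.83e-05). BEC held a 7.80-fold lower level than early cells. Nr0b2 encodes the small heterodimer partner (SHP), which FXR induces and which lacks a DNA-binding domain. Its libraries read 32.3, 20.6 and 20.3 CPM in early, 19.4, 16.4 and 10.8 in intermediate, 13.8, 10.3 and 8.35 in full, and 4.38, 2.84 and 3.34 in BEC. Early and intermediate libraries did not overlap but lay close together, whereas all BEC libraries were below all full ones. The first fall, by 0.65 ± 0.25 (adjusted p = 0.0432), was lost when early library 1, intermediate 2 or 3, full 2 or BEC 3 was left out (adjusted p 0.0534 to 0.221). The value was -0.39 without early 1 and -0.45 without intermediate 3. Without intermediate 2, full 2 or BEC 3 it was -0.70, -0.65 and -0.65. The second change was -0.52 ± 0.26 (adjusted p = 0.124, or 0.0101 with the library number as a block), and the last a fall by 1.62 ± 0.28 (adjusted p = 0.000731).

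Nr1h3 encodes liver X receptor alpha, an oxysterol receptor that drives lipogenic and cholesterol efflux genes. It fell from 128, 138 and 141 CPM in early libraries to 43.4, 59.2 and 63.7 in intermediate and 16.6, 21.4 and 21.7 in full, and BEC read 11.3, 12.8 and 15.4. These groups did not overlap. The falls were 1.29 ± 0.15 and 1.48 ± 0.15 (adjusted p = 6.99e-06 and 5.04e-06) and then 0.60 ± 0.16 (adjusted p = 0.014), the last lost without full library 2 or 3 or BEC 1 or 2 (adjusted p 0.0526 to 0.0663). Its broadly expressed paralog Nr1h2, liver X receptor beta, had means of 87.8 ± 11.6, 91.0 ± 7.92, 85.6 ± 8.31 and 83.9 ± 4.37 CPM (SD, n = 3 each) in the 4 groups. It was called at no step with TMM scaling (with total counts the first was, at 0.72, adjusted p = 5.19e-05), and BEC differed from early cells by -0.07 on the log2 scale with a 95% interval from -0.32 to 0.19.

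The xenobiotic receptors fell at both of the first steps. Nr1i2 encodes the pregnane X receptor (PXR), which induces drug-metabolizing enzymes. Its level was 155, 138 and 153 CPM in early, 58.1, 52.3 and 56.9 in intermediate, 36.4, 27.0 and 31.0 in full, and 23.5, 23.2 and 23.1 in BEC. Every library of a later group was below every library of the group before it, with falls of 1.41 ± 0.10, 0.82 ± 0.10 and 0.44 ± 0.11 (adjusted p = 1.01e-07, 2.95e-05 and 0.00829). Nr1i3 encodes the constitutive androstane receptor (CAR), its partner in drug response. It read 55.5, 33.3 and 31.3 CPM in early, 3.39, 3.62 and 1.75 in intermediate, 0.383, 0.312 and 0.437 in full, and 0.482, 0.419 and 1.01 in BEC. Early libraries stood above all others, and full and BEC libraries overlapped near the bottom of the measurable range. The falls were 3.78 ± 0.31 and 2.93 ± 0.42 (adjusted p = 2.59e-07 and 9.55e-05), or 104-fold from early to full cells. BEC against full gave 0.75 ± 0.52 (adjusted p = 0.383, 95% interval from -0.44 to 1.94). In the GENCODE M21 annotation 74.9% of Nr1i3 exon bases lie under exons of Tomm40l on the other strand, and the strand setting of the counting is not given in the sources used here. Reads of the pair then cannot be told apart. Tomm40l means went from 13.6 CPM in early cells to 10.3, 6.82 and 5.10 in the later groups.

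Peroxisome proliferator-activated receptors (PPARs) moved in opposite directions. Ppara, the fatty acid sensor that drives hepatic fatty acid oxidation, read 109, 139 and 155 CPM in early, 29.2, 42.9 and 41.5 in intermediate, 5.79, 6.91 and 7.43 in full, and 2.36, 3.87 and 4.39 in BEC. No neighbouring groups overlapped. The falls were 1.83 ± 0.19, 2.50 ± 0.21 and 0.92 ± 0.23 (adjusted p = 2.5e-06, 7.62e-07 and 0.0103), a 37.8-fold difference between BEC and early cells. Ppard, the widely expressed PPAR delta, read 15.4, 16.0 and 16.3 CPM in early and 17.4, 14.6 and 16.4 in intermediate, which overlap, though with total counts that step was called higher (0.68, adjusted p = 3.32e-05). It then rose to 23.6, 24.4 and 24.0 in full and 56.2, 57.9 and 62.5 in BEC, by 0.57 ± 0.09 and 1.30 ± 0.09 (adjusted p = 0.000272 and 4.41e-07). The larger of the rises separated resident BEC from fully converted cells. Pparg, the adipogenic receptor, fell from 33.1, 27.8 and 24.7 CPM to 13.8, 12.5 and 11.8 and then to 8.72, 8.21 and 6.08. BEC libraries read 8.48, 7.32 and 6.35, within the range of the full libraries. The falls were 1.17 ± 0.17 and 0.73 ± 0.17 (adjusted p = 4.42e-05 and 0.00362), and the last change was -0.06 ± 0.17 (adjusted p = 0.877).

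Among the heterodimer partners, Rxra and Rxrg fell and Rxrb was not called. Rxra read 732, 687 and 819 CPM in early libraries, 213, 253 and 282 in intermediate, 85.1, 81.5 and 88.9 in full, and 66.8, 79.6 and 90.1 in BEC. Full and BEC libraries overlapped, and the earlier groups were separate. It fell by 1.58 ± 0.13 and 1.55 ± 0.13 (adjusted p = 2.61e-07 and 8.52e-07), and BEC differed from full by -0.11 ± 0.13 with a 95% interval from -0.41 to 0.18. Rxrg, the least abundant RXR gene, fell from 9.65, 11 and 10.5 CPM to 2.33, 1.64 and 1.98 and then to 0.298, 0.268 and 0.175. Its falls were 2.39 ± 0.26 and 2.97 ± 0.34 (adjusted p = 3.8e-06 and 1.14e-05), and BEC libraries, at 0.241, 0.513 and 0.320, overlapped with the full ones. Rxrb means were 53.1 ± 3.30, 60.1 ± 3.13, 52.4 ± 2.65 and 47.7 ± 10.5 CPM (SD, n = 3), and no step was called with TMM scaling, while with total counts the first was (0.84, adjusted p = 0.000102).

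**Figure D2:**
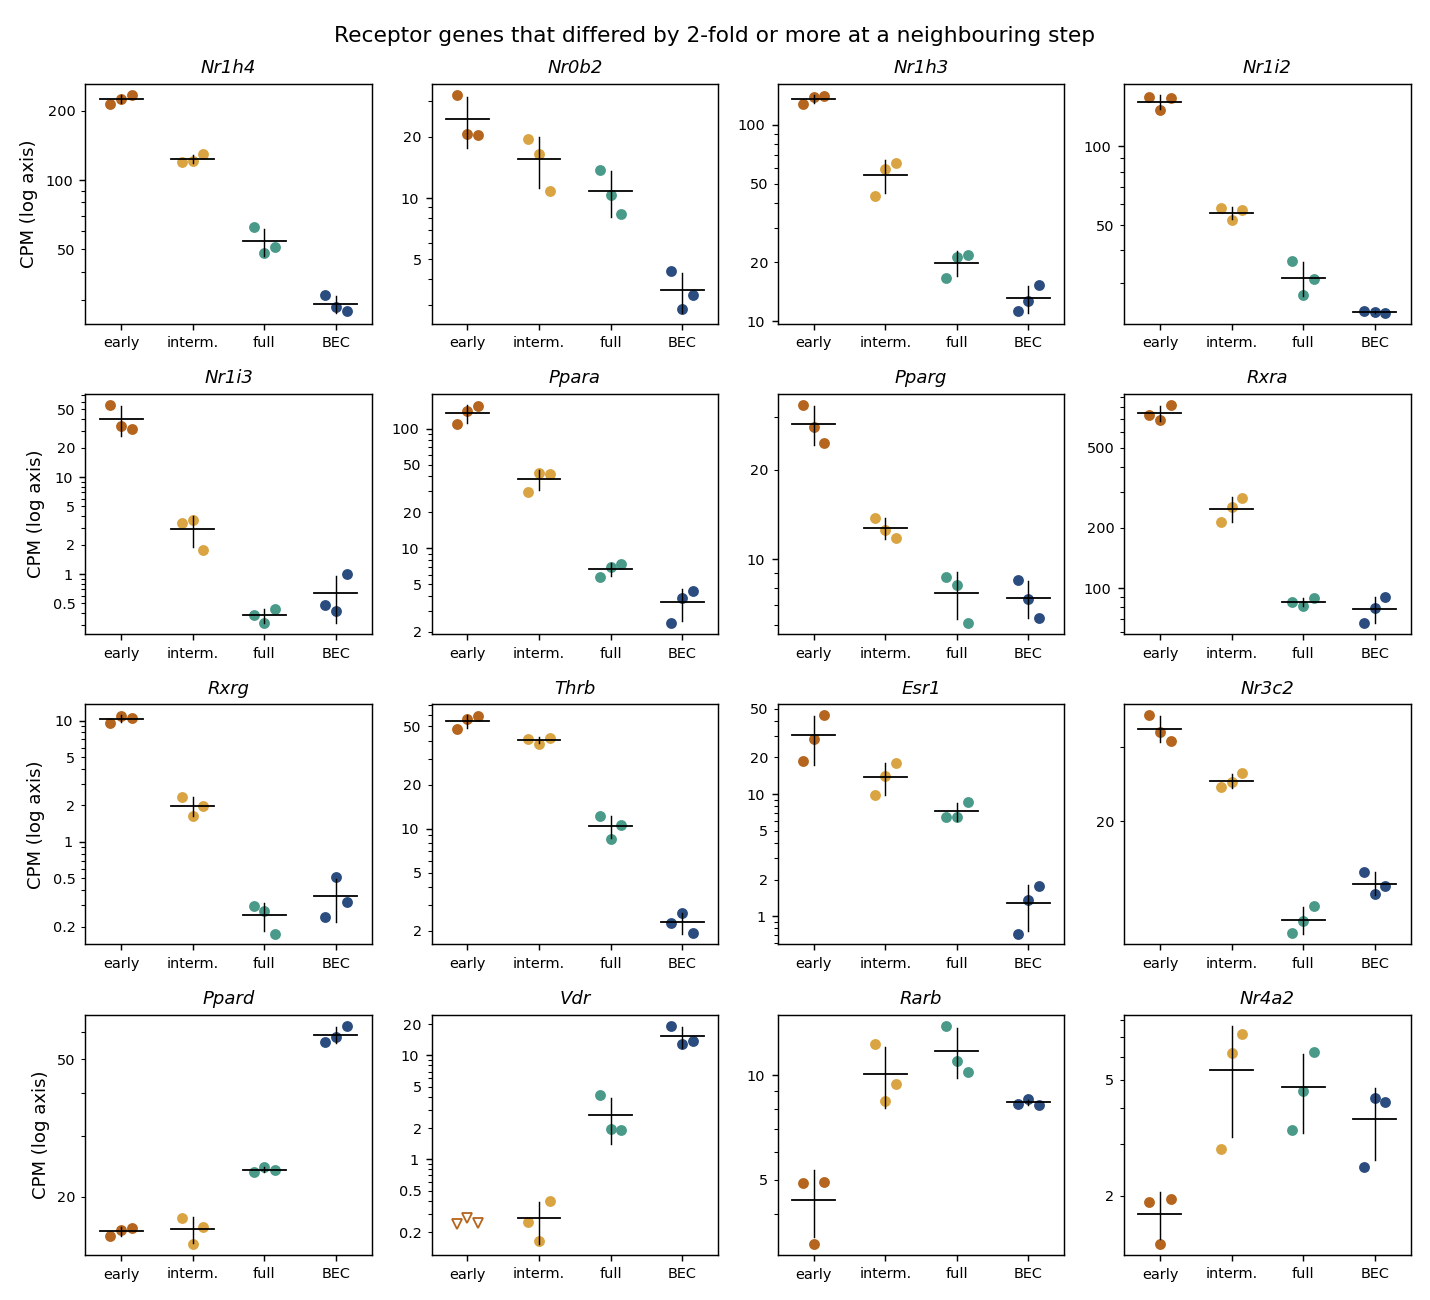
Level of 16 receptors in each library, in CPM on a log axis, with the mean as a line, the SD as a bar and an open triangle at the floor for a library with under 3 counts. Ppara spans 155 to 2.36 CPM and Nr1i3 55.5 to 0.312 CPM, while Vdr climbs from the floor to 19.3 CPM and Ppard to 62.5 CPM.

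Rarb and Rarg rose at the first step, and Rara at the last. Rarb, itself a classic retinoic acid target with the element shown above, read 4.90, 3.27 and 4.94 CPM in early, 12.3, 8.44 and 9.45 in intermediate, 13.9, 11 and 10.2 in full, and 8.29, 8.53 and 8.22 in BEC. All intermediate and full libraries exceeded all early ones, and the BEC libraries lay above the early ones and overlapped with the intermediate ones. The rise was 1.19 ± 0.21 (adjusted p = 0.00025), and BEC against full gave -0.49 ± 0.19 (adjusted p = 0.0864, or 0.0468 with the number block). Exons of Top2b on the other strand cover 34.1% of Rarb exon bases, and Top2b means were 84.3, 143, 141 and 141 CPM, rising at the same step. The part of Top2b reads in the Rarb counts was not tested. Rarg, the receptor of epithelia, read 25, 18.2 and 21.4 CPM in early and 38.6, 50.3 and 39.8 in intermediate libraries, a rise of 0.99 ± 0.17 (adjusted p = 0.000202). Its later means were 51.6 ± 7.63 in full and 69.4 ± 12.4 in BEC (SD, n = 3), with a last change of 0.43 ± 0.16 (adjusted p = 0.0743, or 0.0398 with the block). Rara, the broadly expressed form, had means of 51.3 ± 2.38, 51.5 ± 5.19 and 55.0 ± 2.69 CPM in the EGFP+ groups and read 75.1, 73.4 and 77.3 in BEC. With TMM scaling it was called at the last step only, a rise of 0.45 ± 0.09 (adjusted p = 0.00174). With total counts it was also called higher at the first and second (0.67 and 0.30, adjusted p = 1.76e-05 and 0.0162), as was Rarg at the second (0.47, adjusted p = 0.0334).

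The thyroid hormone receptors moved in opposite directions. Thrb, the main hepatocyte form, read 48.2, 56.0 and 58.5 CPM in early, 41.4, 38.1 and 41.8 in intermediate, 12.1, 8.52 and 10.6 in full, and 2.26, 2.66 and 1.92 in BEC. Each group lay below the one before. The first fall was small, 0.42 ± 0.13 (adjusted p = 0.0144), reversed with total counts, and lost without early library 3 or intermediate 2 (adjusted p = 0.0597 and 0.0556). The later falls of 1.96 ± 0.14 and 2.19 ± 0.16 (adjusted p = 2.27e-07 and 6.41e-07) brought BEC 23.7-fold below early cells. Thra, the form of most other tissues, read 30.6, 26.1 and 21.8 CPM in early, 42.6, 39.8 and 32.9 in intermediate, and 56.7, 59.6 and 52.7 in full, with BEC at 46.3, 59.6 and 63.5. Early, intermediate and full libraries did not overlap, and BEC overlapped with full. Its rises were 0.55 ± 0.15 and 0.55 ± 0.14 (adjusted p = 0.00609 and 0.00731). Thra shares 263 exon bases with Nr1d1 on the other strand.

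Vdr, the vitamin D receptor, had 0 counts in all 3 early libraries and its highest level in BEC. The libraries held 4, 3 and 7 counts in intermediate, 97, 44 and 44 in full, and 401, 279 and 298 in BEC. That corresponds to 0.251, 0.164 and 0.396 CPM, then 4.13, 1.96 and 1.92, then 19.3, 13 and 13.6. No groups overlapped. The limit that 0 counts allow is 3 counts over the early group, or 0.0833 CPM. Mean levels were 3.25 times that limit in intermediate, 32.0 times in full and 184 times in BEC, leaving out their own counting error. The first step had adjusted p = 0.0154, but Vdr passed the filter on low counts through its later groups and was not tested in a fit of the early and intermediate libraries alone, so that call is not read as support. The next rises were 3.28 ± 0.47 and 2.51 ± 0.32 on the log2 scale (adjusted p = 0.000169 and 0.000151). Vdr is also known in immune and stellate cells. The summed macrophage markers moved in the same order, at 25.9 to 29.0, 30.8 to 41.1, 66.2 to 97.1 and 133 to 163 CPM in the 4 groups. Within it, Csf1r had means of 3.94, 24.6, 67.8 and 127 CPM. The Kupffer cell markers Clec4f and Vsig4 had means of 1.70 and 0.576 CPM in early cells and 3.69 and 1.34 in BEC, neither called. Of 9 tested macrophage markers 1 was called higher (Csf1r) and 1 lower (Cd68) in BEC than in early cells, with a median of 1.12, and 2 were higher (both of these) in BEC than in full cells, with a median of 0.85. Stellate cell markers summed to 113 to 330, 65.6 to 194, 49.4 to 85.7 and 64.6 to 110 CPM in the 4 groups. From full cells to BEC that sum was higher in each number, with a list median of 0.74 and 1 of 9 called, lower. The part of other cells in the Vdr level was not tested.

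The steroid receptors Nr3c2 and Esr1 fell. Nr3c2, the mineralocorticoid receptor, read 35.7, 32.6 and 31.1 CPM in early, 24.1, 24.8 and 26.0 in intermediate, 10.9, 11.6 and 12.6 in full, and 15.2, 13.5 and 14.1 in BEC. The full libraries were the lowest, but BEC against full was not called with either scaling (0.28 with total counts, adjusted p = 0.0725). The falls of Nr3c2 were 0.41 ± 0.10 and 1.09 ± 0.10 (adjusted p = 0.00413 and 2.51e-06). With total counts its first step was called higher instead (0.26, adjusted p = 0.0369). Esr1, the estrogen receptor alpha, varied most within early cells, at 18.6, 28.1 and 44.2 CPM. It read 9.87, 14.0 and 17.8 in intermediate, 6.55, 6.51 and 8.62 in full, and 0.723, 1.35 and 1.78 in BEC. The groups did not overlap, and the clearest step was the last, a fall by 2.48 ± 0.38 (adjusted p = 0.000286). The earlier falls were 1.12 ± 0.30 and 0.94 ± 0.31 (adjusted p = 0.00641 and 0.0264). Both were lost with total counts (adjusted p = 0.192 and 0.0731), and the second also without intermediate library 2 or 3 or full 1 or 2 (adjusted p 0.0617 to 0.114). Leaving out 1 library kept the call of the first but moved its value between -1.38 and -0.74. Nr3c1, the glucocorticoid receptor, was called at no step with TMM scaling (with total counts it was called higher at the first, 0.49, adjusted p = 0.00118) and had means of 125 ± 14.6, 111 ± 12.8, 98.4 ± 7.71 and 80.7 ± 5.09 CPM (SD, n = 3). BEC stood below early cells by 0.63 ± 0.11 on the log2 scale (adjusted p = 0.000133), and below full by 0.29, with adjusted p = 0.0834, or 0.0123 with the block.

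Esrra, the estrogen-related receptor alpha that acts with PGC-1 coactivators on mitochondrial genes, had means of 81.0 ± 13, 63.1 ± 5.49, 40.7 ± 1.72 and 39.0 ± 12.1 CPM. It fell at the second step, by 0.63 ± 0.18 (adjusted p = 0.0128), and with the number block at the first as well (-0.35, adjusted p = 0.0435). With total counts neither step was called (0.30 and -0.43, adjusted p = 0.158 and 0.0741). Its relative Esrrg had 0 counts in early and intermediate libraries, 1 in each full library, and 6, 8 and 15 in BEC. The BEC level was 10.4 times the full level, with a 95% counting interval from 3.22 to 53.2. Its mean was 5.39 times the limit that 0 early counts allow, leaving out its own counting error. That gene was not tested.

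**Figure D3:**
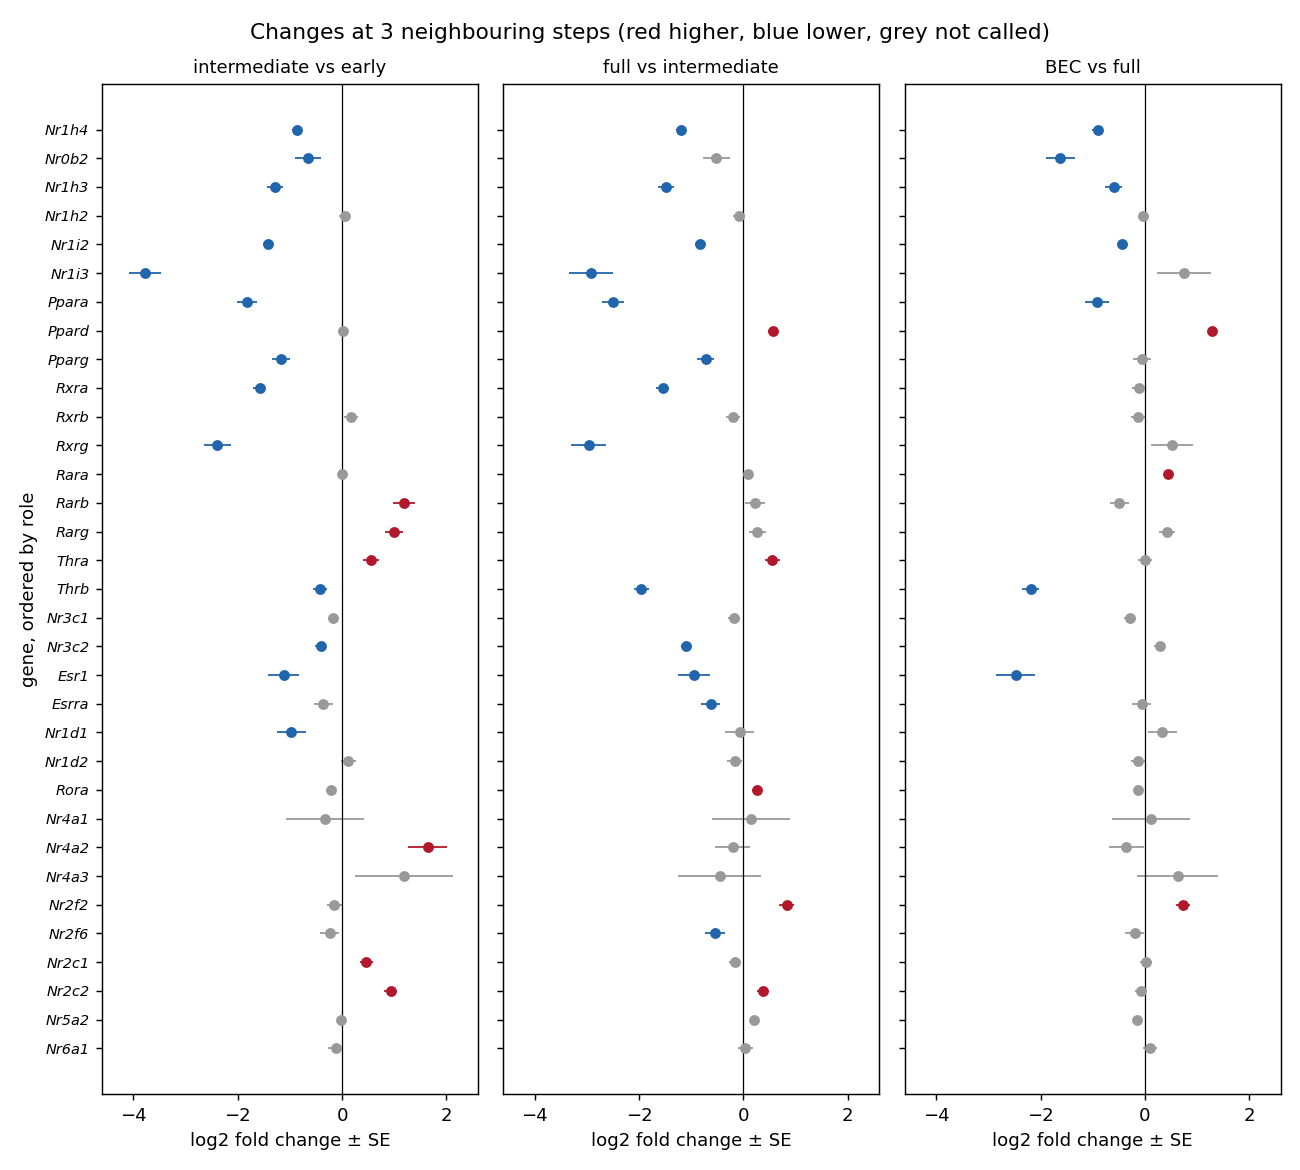
Log2 fold change ± SE of 33 tested receptors at the 3 successive steps, Vdr left out because its early libraries hold 0 counts. The points of Nr1i3, Rxrg and Ppara lie furthest left at the first steps (-3.78, -2.39 and -1.83 at the first), and Thrb and Esr1 furthest left at the last (-2.19 and -2.48). With total counts Nr0b2, Thrb and Nr3c2 change sign at the first step.

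Of the orphan receptors of the NR2 family, Nr2f2, Nr2c1 and Nr2c2 rose and Nr2f6 fell. Nr2f2, which encodes COUP-TFII, a factor of veins and mesenchyme, read 47.3, 48.2 and 57.9 CPM in early and 39.4, 50.02 and 48.7 in intermediate, which overlap. It rose to 69.7, 92.9 and 82.5 in full and 116, 134 and 155 in BEC, by 0.83 ± 0.14 and 0.73 ± 0.14 (adjusted p = 0.00033 and 0.0015). With total counts it was called higher at the first step as well (0.51, adjusted p = 0.0068). Summed endothelial markers ran from 16.1 to 27.4 CPM in early, 9.68 to 24.1 in intermediate, 5.87 to 9.05 in full and 8.43 to 17.1 in BEC. From full cells to BEC that sum was higher in each number, with a list median of 0.58 and 1 of 8 tested markers called, higher, and its part in the Nr2f2 rise was not tested. Nr2f6, which encodes the related EAR2, had means of 128 ± 18.0, 109 ± 11.5, 74.3 ± 9.58 and 64.9 ± 19.0 CPM. Its fall at the second step, by 0.55 ± 0.19 (adjusted p = 0.0301), was lost without intermediate library 2 or full 1 or 3 (adjusted p 0.0820 to 0.115) and with total counts (-0.35, adjusted p = 0.157). Exons of Ocel1 cover 54.4% of its exon bases on the other strand, with Ocel1 means of 31.1, 25.2, 21.7 and 19.4 CPM. Nr2c1 and Nr2c2, the testicular receptors that often act as repressors, rose at the first step, to 30.4 ± 3.12 from 22.0 ± 1.47 and to 37.8 ± 6.45 from 19.8 ± 1.34 CPM (SD, n = 3). Those rises were 0.47 ± 0.12 and 0.93 ± 0.12 (adjusted p = 0.00457 and 1.59e-05). Nr2c2 rose again at the second, by 0.37 ± 0.11 (adjusted p = 0.0176), a call lost without intermediate library 2 or 3 or full 3 (adjusted p 0.0586 to 0.0912). Mrps25, which covers 30.7% of Nr2c2 exon bases on the other strand, went from 15.2 to 11 CPM at the first step and to 12.4 at the second. Nr2f1 had at most 4 counts in any library and was not tested.

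Nr5a2 and Nr6a1 were called at no step. Nr5a2 encodes liver receptor homolog 1, an activator of bile acid genes in liver. Its means were 128 ± 5.32, 127 ± 11.8, 146 ± 7.12 and 132 ± 5.29 CPM (SD, n = 3), and the 95% interval of the BEC to early difference ran from -0.16 to 0.25 on the log2 scale. DESeq2 and 3 settings of scaling or filtering called a rise of Nr5a2 at the second step (0.25 on the log2 scale with DESeq2, adjusted p = 0.0194), where edgeR gave 0.21 with adjusted p = 0.0706. Nr6a1, the germ cell nuclear factor, had means from 18.2 to 20.0 CPM in the 4 groups. Both stood higher in intermediate than early cells when total counts set the scale (0.65 and 0.54).

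Nr1d1 of the circadian clock varied with the library number. Nr1d1, which encodes the repressor REV-ERB alpha, read 225, 136 and 110 CPM in early, 117, 57.0 and 65.5 in intermediate, 95.6, 68.3 and 64.2 in full, and 98.0, 97.0 and 93.3 in BEC. Number 1 was the highest in every group, and early and intermediate libraries overlapped. The first fall, by 0.97 ± 0.28 (adjusted p = 0.00895), was lost without early library 1 (-0.62, adjusted p = 0.0567). BEC against full was 0.34 (adjusted p = 0.474), and 0.52 (adjusted p = 0.00776) without the 4 libraries numbered 1. Nr1d2, REV-ERB beta, ranged over means from 141 to 172 CPM with no call, except with total counts at the first step (0.79, adjusted p = 0.000242). Rora, the activator that competes with the REV-ERBs, had means of 99.3 ± 2.14, 85.4 ± 2.47, 102 ± 9.82 and 93.4 ± 8.14 CPM (SD, n = 3). It rose at the second step by 0.25 ± 0.09 (adjusted p = 0.037), a call lost without early library 2, any 1 intermediate library or full 1 or 2 (adjusted p 0.0516 to 0.179), and with the block it fell at the first (-0.22, adjusted p = 0.0347). That fall was also called by DESeq2, with median-of-ratios factors, with the filter on a mean of 50 counts and in the fit of 6 libraries (adjusted p 0.0147 to 0.0444). With total counts that first step was called higher (0.45, adjusted p = 0.000832). Among 15 tested clock genes 3 rose (Npas2, Nfil3 and Bhlhe41) and 5 fell (Dbp, Tef, Hlf, Ciart and Bhlhe40) at the first step, where 28.7% of all genes were higher and 25.7% lower. With total counts the split became 7 and 1, where 59.4% of all genes were higher and 10% lower. What the numbers mark is not given in the sources used here.

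Nr4a1, which encodes the immediate early receptor NUR77, also varied with the number. It read 112, 161 and 253 CPM in early, 27.3, 155 and 237 in intermediate, 37.4, 185 and 241 in full, and 48.1, 170 and 284 in BEC. It was lowest in number 1 and highest in number 3 in all 4 groups, and the groups overlapped widely. The sum of 11 dissociation stress genes kept the same order, with 3298, 4880 and 5717 CPM in early and 3777, 6173 and 7074 in BEC. No step was called (-0.33 ± 0.75, 0.14 ± 0.74 and 0.12 ± 0.74), but with the number block the first was (-0.75, adjusted p = 0.0430). At that step number 1 went from 112 to 27.3 CPM and the other numbers from 161 to 155 and 253 to 237, and without intermediate library 1 the unblocked value was 0.17 (adjusted p = 0.871). Nr4a2, or NURR1, read 1.90, 1.36 and 1.94 CPM in early and 2.89, 6.19 and 7.19 in intermediate, without overlap. That rise was 1.64 ± 0.38 (adjusted p = 0.00241), and full and BEC means were 4.72 ± 1.43 and 3.68 ± 1.02 CPM (SD, n = 3). In intermediate cells the stress genes summed to 3868, 6620 and 7729 CPM, higher than early in each number, and 2 of 11 were called higher and 0 lower, with a median of 0.71. Their part in the Nr4a2 rise was not tested. Nr4a3 stayed under 1 CPM in its means and was not called.

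**Figure D4:**
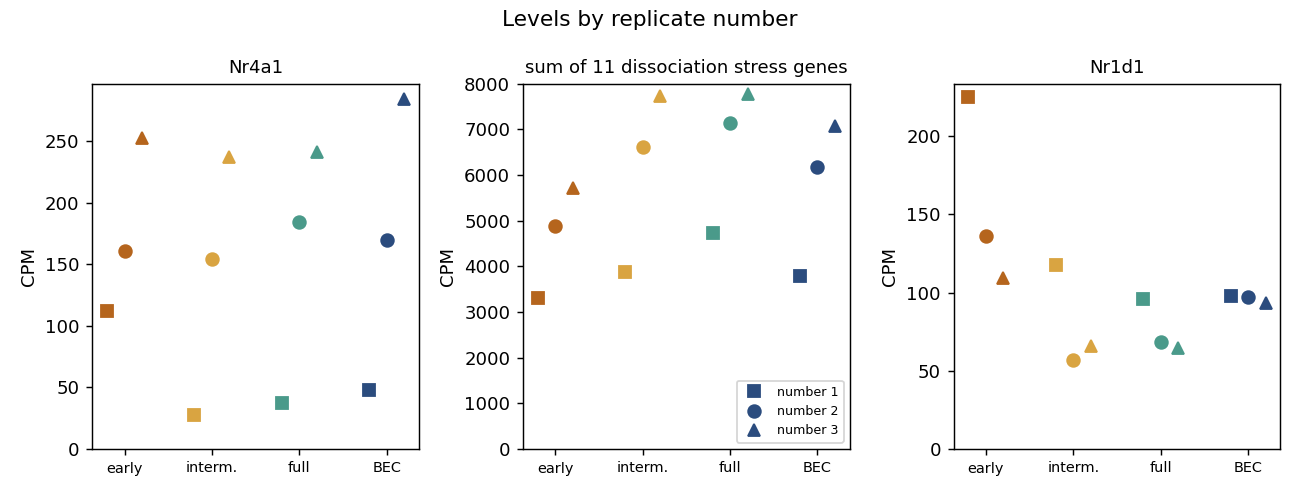
Nr4a1, the sum of 11 dissociation stress genes and Nr1d1, each in CPM by group, with a marker shape for each labelled library number. In all 4 groups Nr4a1 and the stress sum are lowest in number 1 and highest in number 3, and Nr1d1 is highest in number 1.

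Ratios between receptors of the same ligand class do not depend on how libraries are scaled. Each was the log2 ratio of counts plus 0.5 within a library. Thra over Thrb was -0.65, -1.10 and -1.42 in early, 0.04, 0.06 and -0.34 in intermediate, 2.22, 2.80 and 2.31 in full, and 4.34, 4.48 and 5.03 in BEC. Every group lay above the one before, and the mean moved by 5.68 from early cells to BEC. Ppard over Ppara moved by 1.85, 3.05 and 2.25 at the steps, from a mean of -3.06 ± 0.22 to 4.09 ± 0.40 (SD, n = 3), again without overlap. Rxrb over Rxra moved by 1.77 and 1.34 and then by -0.04, where full and BEC overlapped. Nr1h3 over Nr1h2 moved by -1.36, -1.38 and -0.57, the last with overlap. Rarg over Rara rose by 0.99 at the first step alone, and its later groups overlapped.

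Of the 10 ratios, the groups did not overlap in 8 at the first step, 7 at the second, 5 between full cells and BEC, and 9 between early cells and BEC. Over every pair of tested genes, the share of ratios without overlap was 57.7%, 56.5%, 43.6% and 75.3% in these comparisons. Overlap was counted without pairing by library number. Among the ratios that overlapped between full cells and BEC, Nr1h3 over Nr1h2 and Nr1d2 over Nr1d1 were lower in BEC in each number. Pparg over Ppara was higher in each, while Rxrb over Rxra and Rarg over Rara were mixed. Rarb over Rara moved by 1.20 at the first step and by -0.93 at the last, both without overlap, so that its BEC libraries turned back toward the early level. Nr1i3 over Nr1i2 fell by 2.37 and 1.99 and then rose by 1.05, where the counts of Nr1i3 were low. With 3 libraries against 3, the exact 2-sided permutation test cannot go below 0.1, and over the 40 tests the smallest adjusted p was 0.138.

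**Figure D5:**
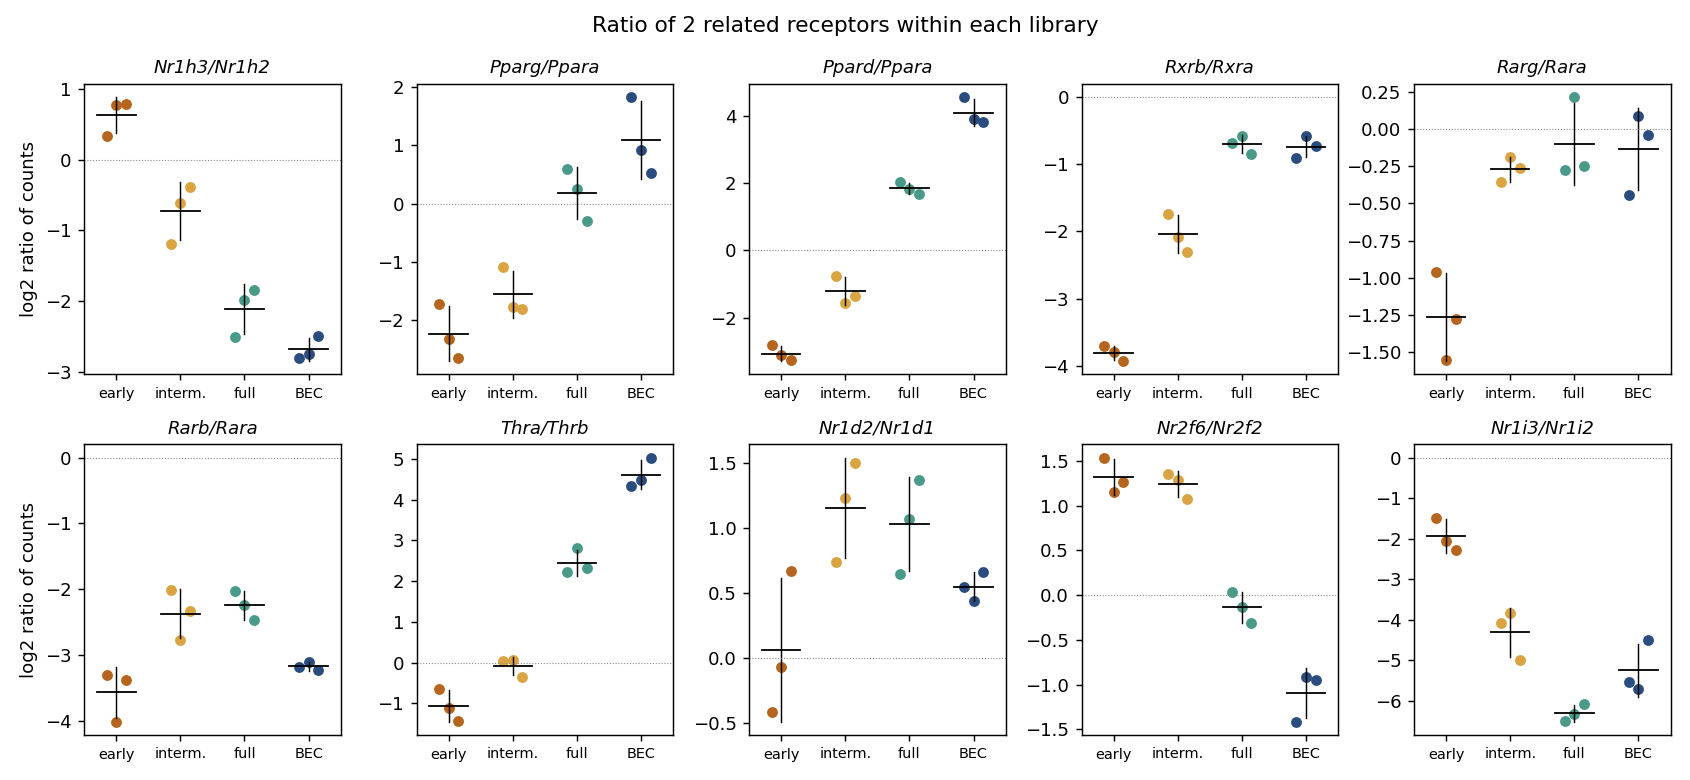
Within-library log2 ratio of counts for 10 receptor pairs by group, with points for libraries and bars for mean ± SD. Thra over Thrb climbs from -1.42 to 5.03 over the libraries, Ppard over Ppara climbs by 7.16 in the mean, and Rxrb over Rxra levels off between full cells and BEC.

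The order of receptor levels changed as well. Levels were divided by the GENCODE M21 exon length of each gene to compare genes with each other, as CPM per kilobase. In early cells the order was led by Rxra (137), Nr1h4 (97.8), Nr1i2 (58.2), Nr1h3 (53.8) and Nr1d1 (51.0). In BEC it was led by Nr4a1 (47.7), Nr1d1 (31.2), Nr1d2 (26.0), Nr1h2 (25) and Nr5a2 (22.4). Rxra went from rank 1 of 36 in early cells to rank 10 in BEC, Ppara from 8 to 28 and Thrb from 20 to 30. Rarg moved up from 24 to 8, Vdr from 35 to 23 and Ppard from 28 to 17. The lead of Nr4a1 in BEC rests on libraries that spread from 48.1 to 284 CPM before division by length. Nr1d2 and Nr1h2 differed there by less than their SD (1.52 and 1.30). In early cells Nr1d1 (SD 19.7) stood within its SD of Nr1h3 and of Nr4a1, which came next at 49.9 (SD 20.3).

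Other genes of these pathways were counted in lists, to be read beside the 25.7%, 19.8% and 10.6% of all genes that were lower and the 28.7%, 20.8% and 10.7% that were higher at the 3 steps. Splits with total counts are to be read beside 10% lower and 59.4% higher at the first step and 12.2% and 32.3% at the second. Of 8 tested FXR and SHP targets 7 fell at the first step, 7 at the second and 4 at the last (Abcb4, Slc51b, Klb and Fgfr4). Abcb11, the bile salt export pump, had means of 536, 50.5, 6.24 and 6.25 CPM in the 4 groups, and Abcb4, the phospholipid floppase, 569, 192, 29.3 and 6.11. Fgfr4, the receptor for the intestinal FXR-induced hormone, was the 1 gene of the list that rose at the first step (128 to 162 CPM). Of 13 CAR and PXR targets 12 fell at the first step and 12 at the second, with Cyp3a11 at 3081, 234, 35.6 and 41.9 CPM. Abcc4 was the 1 that rose at the second, and between full cells and BEC Ugt1a1 rose and Abcc2 fell. Of 16 PPAR targets 11 and then 15 fell and none rose at these steps, nor in BEC, where 5 fell, among them Cpt1a, Plin2 and Cd36. Cpt1a, which admits fatty acids to mitochondria, had means of 553, 443, 253 and 194 CPM. Of 10 LXR targets 9 fell at the first step, and 5 fell and 1 rose at the second. Abcg1, the sterol exporter, chosen after its values were seen, then rose from 1.22 to 3.58 and 15.7 CPM, at the second step and the last. With total counts the first step gave 5 lower and 1 higher of the FXR and SHP targets, 12 lower of the CAR and PXR targets, 7 lower and 3 higher of the PPAR targets, and 6 lower of the LXR targets.

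Among 12 tested genes of retinoid handling 6 fell and 1 rose at the first step, and 7 fell and 2 rose at the second. With total counts these became 5 lower and 4 higher, and 5 lower and 2 higher. The members that rose were chosen for naming after their values were seen. Stra6, the cellular retinol uptake receptor, had 0 counts in early cells and means of 0.130, 0.858 and 8.57 CPM in the other groups, the first of these on 7 counts in all. Aldh1a2, a retinoic acid synthesizing enzyme, had means of 1.07, 0.433, 11.6 and 54.1 CPM, with rises of 4.69 and 2.23 on the log2 scale at the second step and the last (adjusted p = 5.2e-06 and 0.000175). Aldh1a1, the abundant liver form, fell from 1667 to 306 CPM between early cells and BEC, and the carrier Rbp4 from 3185 to 33.3. Of 7 tested vitamin D genes 5 fell and 1 rose at the first step (4 and 1 with total counts) and likewise at the second. Trpv6, a calcium channel gene, was the one called higher at the first, on 9 counts over the intermediate libraries and 0 in early. That is 2.03 times the limit that 0 counts allow, and Trpv6 held 34 and 187 counts in full and BEC. Both Trpv6 and Stra6 were this low at the first step and were let into the test by later groups, so their calls there are not read as support. The one that rose at the second was Cyp27b1, which makes the active hormone, with means of 0.118, 0.154, 1.48 and 5.33 CPM. Its early and intermediate means lie under the floor of every library there (at least 0.237 and 0.164 CPM). Cyp27b1 thus passed the filter only through the later groups, where it is higher. Cyp27a1 fell from 351 to 4.08 CPM. Of 7 thyroid hormone genes 6 fell at the first step, or 4 with total counts. Hr, a corepressor gene that thyroid hormone induces, rose from 4.00 to 12.8, 28.5 and 53.9 CPM.

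Of 12 glucocorticoid targets 6 fell and 1 rose (the kinase gene Sgk1) at the first step, and 5 fell at the second (Tat, Pck1, G6pc, Klf9 and Hsd11b1). With total counts the first step gave 4 lower and 3 higher, and the list median moved from -0.77 to -0.10. Of 7 tested estrogen and estrogen-related receptor genes 6 and then 5 fell, the latter Hsd17b2, Hsd17b4, Pdk4, Cycs and Acadm, or 4 at each step with total counts. Of 17 coregulators 10 rose and 2 fell at the first step, or 14 and 1 with total counts (where 59.4% and 10% of all genes were). Lcor, a ligand-dependent corepressor chosen after its values were seen, rose at all 3 steps, from 40.8 to 68.4, 107 and 145 CPM. Ncoa4 and Ppargc1b were the 2 that fell at the first step, and both fell again at the second. Of 13 superfamily members outside the set 4 were tested, and at the first step 2 fell and 1 rose, or 0 and 1 with total counts. They included Hnf4a, the master factor of hepatocytes, which fell, at 1141, 638, 187 and 131 CPM. Hnf4g, a relative of Hnf4a, rose from 0.111 to 1.16 and 4.49 CPM over the first steps. Its early mean lies under the floor of 3 counts per library, so it passed the filter only through the later groups, where it is higher.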

How the data were processed

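The authors deposited raw counts per gene symbol for 12 bulk RNA libraries, and a table of signal, which per its values is those counts divided by 1 size factor per library. The submitters' processing notes name STAR 2.7.10b, featureCounts 2.0.1, DESeq2 and GRCm39. The annotation, strand setting and treatment of reads that match several genes are not given in the sources used here. Only the counts were tested. The table held 53599 genes, 0 rows without a name and 0 columns without a sample.

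Counts were analysed with edgeR 4.0.16 in R 4.3.3: filterByExpr kept 16210 genes, library sizes were scaled by TMM, and all 12 libraries entered 1 quasi-likelihood fit with a term per group. Adjusted p-values are Benjamini-Hochberg values over the genes tested. The SE is the absolute log2 fold change over the square root of F. Levels under 3 counts (0.128 to 0.273 CPM per library) were taken as the floor. Intervals and floors cover counting error only, apart from the intervals of log2 fold changes, which use the fitted SE. Ratios to a floor leave out the counting error of the higher group. Isotype ratios used 0.5 added to each count and exact permutation tests. Scipy 1.17.1, pandas 2.3.3 and matplotlib 3.10.9 were used from Python 3.11.15. The procedure was tested on simulated counts.

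The receptors and the lists were chosen with earlier results of these data known, and the motifs with the values seen. Genes given library by library were called at 1 or more steps, with at least a 2-fold change there and a mean of at least 1 CPM in either group. Pathway lists are named by their 3 most abundant genes unless stated; others are named because few of a list were called, after their values were seen. A few genes of the lists are not reported here. A few further receptors are given in full as well. Exon overlaps and lengths come from GENCODE M21 (GRCm38), and the files' own coordinates were not used.

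Nothing says which libraries came from separate mice, so p-values measure the spread between these libraries, which may be technical. Replicates differed beyond counting error, with chi-square per degree of freedom from 5.23 to 54.4. Libraries carry the numbers 1 to 3 in every group. Deviations from the group means of same-numbered libraries correlated across genes with r from 0.121 to 0.322 over the first 2 steps and from 0.170 to 0.257 between full cells and BEC, so the numbers were taken to pair libraries there. The remaining comparisons each had a pair under 0.1. The main fit nonetheless had no term for the number, so its SE and adjusted p leave the pairing out. A block for the number entered only as an alternative.

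Alternatives covered DESeq2 1.42.0, median-of-ratios and total-count scaling, 2 filters, a block for the number, fits of 6 libraries, a minimum 2-fold change and leaving out 1 library. Leaving out the 4 libraries numbered 1 was chosen after seeing the data.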

Additional observations from a re-analysis of the deposited data

How the results depend on the processing

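Depth limits receptors near 3 counts per library, among them Vdr in intermediate cells, Nr1i3 and Rxrg in full cells and BEC, Nr4a3, Esrrg and Nr2f1. With 3 libraries per group, leaving out 1 moved the receptors called to 18 to 21 at the first step, 15 to 19 at the second and 10 to 11 at the last, and to 23 to 25, 24 to 26 and 21 to 24 for full against early, BEC against early and BEC against intermediate. Of 50 calls at the 3 steps, 38 were lost in no setting that tested them other than the minimum 2-fold change, and 41 were kept with total counts. Of the 38, 35 were tested in every such setting, and 3 were not, Vdr at the first step in the fit of 6 libraries and Rxrg at the first and second with the filter on a mean of 50 counts. Asking for a change above 2-fold left 5, 7 and 4 receptors at the 3 steps (14.7%, 20.6% and 11.8% of those tested, beside 17.1%, 11.9% and 4.95% of all genes) and 14, 17 and 13 in full against early, BEC against early and BEC against intermediate (41.2%, 50% and 38.2%, beside 35%, 37.8% and 19.8%). The other settings kept every total of higher and lower calls within 1.5 times, but total counts moved the split from 7 higher and 13 lower to 18 and 7 at the first step and from 9 and 16 to 17 and 11 for full against early. The block for the library number gave 23, 20 and 14 receptors at the 3 steps, gained the 7 calls given beside their genes and lost none. It also raised the number of all genes called at these steps, from 8817, 6590 and 3445 to 9274, 7300 and 4096. Apart from that block, total counts and left-out libraries, calls of tested receptors were lost for Nr0b2 in the fit of 6 libraries and for Nr3c2 (both at the first step) and Rora (at the second) with no filter. Calls were gained for Esrra and Rora at the first step and Rarb and Nr3c1 at the last in the fit of 6 libraries, for Nr0b2 at the second and Rarg at the last with no filter, and for Rora and Nr5a2 as given beside those genes.

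The changes of sign were as follows, in log2 units, and 3 of them befell a called value (Nr0b2, Thrb and Nr3c2, with total counts, whose construction moves the median gene). With total counts they were Nr0b2 0.017, Thrb 0.24, Nr3c1 0.49, Nr3c2 0.26, Esrra 0.30, Rora 0.45, Nr4a1 0.33, Nr2f2 0.51, Nr2f6 0.43, Nr5a2 0.65 and Nr6a1 0.54 at the first step and Nr1h2 0.11, Rxrb 0.0041, Nr3c1 0.023, Nr1d1 0.13, Nr1d2 0.036 and Nr2c1 0.039 at the second. At the first step DESeq2 gave Nr1h2 -0.0042, Ppard -0.035 and Rara -0.048, median-of-ratios factors Nr1h2 -0.0040, Ppard -0.034 and Rara -0.049, the filter on a mean of 50 counts Rara -0.0080 and no filter Nr5a2 0.026. Between full cells and BEC, no filter gave Thra -0.025 and Nr2c1 -0.012, and the fit of 6 libraries Thra -0.012. Without the libraries numbered 1, Nr1d1 0.11 stood at the second step. The cause was not tested. Leaving out 1 library changed the sign of values that were not called, with ranges at the first step for Nr1d2 -0.0055 to 0.27, Nr1h2 -0.0099 to 0.17, Nr4a1 -0.94 to 0.17, Nr5a2 -0.056 to 0.059, Nr6a1 -0.23 to 0.041, Ppard -0.031 to 0.085, Rara -0.081 to 0.060 and Nr2f6 over Nr2f2 -0.16 to 0.029, at the second for Nr1d1 -0.27 to 0.31, Nr4a1 -0.34 to 0.75, Nr4a2 -0.50 to 0.040, Nr4a3 -0.97 to 0.68, Nr6a1 -0.028 to 0.12, Nr1d2 over Nr1d1 -0.34 to 0.065 and Rarb over Rara -0.072 to 0.30, and at the last for Esrra -0.31 to 0.14, Nr1h2 -0.093 to 0.046, Nr2c1 -0.11 to 0.088, Nr2f6 -0.38 to 0.024, Nr4a1 -0.50 to 0.59, Pparg -0.20 to 0.046, Rxrb -0.24 to 0.036, Thra -0.089 to 0.13, Rarg over Rara -0.14 to 0.13 and Rxrb over Rxra -0.11 to 0.045.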
